A study of Mus musculus with 6 samples.

Results

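The oligoadenylate synthetase (OAS) family was examined in cultured mouse cells labelled as hepatic stellate cells. These are the vitamin A-storing liver pericytes that turn into matrix-producing myofibroblasts in culture. Markers of other liver cells were abundant in the same libraries, as given below. The family was taken as 8 genes by symbol, Oas1a, Oas1b, Oas1c, Oas1g, Oas2, Oas3, Oasl1 and Oasl2, out of 55401 genes in the deposited table. The members were chosen by symbol and selected on their FPKM and their difference between the genotypes in these same libraries, so the values below describe them and are no independent support for a change. The 4 other mouse Oas genes in the table lie just outside this choice and were close to silent. Oas1d, Oas1e and Oas1f had no count in any library, which allows up to 3 counts per library, or 0.0393 to 0.0484 CPM (counts scaled to library size). Oas1h had 13 to 17 counts in cells from S100a16+/- mice and 0, 4 and 0 counts in WT, an FPKM of at most 0.128. The lowest value of any of the 8 was an FPKM of 0.578, for Oas1b in WT replicate 3. FPKM is the authors' level per length of gene and depth of library, so it can be compared between genes of different length.

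RNA was sequenced from 3 libraries of cells from S100a16+/- mice, heterozygous for the calcium-binding protein gene S100a16, and 3 of cells from wild-type (WT) mice, all on the C57BL/6J background. Every library came from cells kept 7 days in medium with serum, and no further treatment is given. Age and sex are not given in the labels, and neither is whether the 3 libraries of a genotype are separate animals, so a p-value measures only the spread between these libraries, which may be technical.

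OAS enzymes are induced by interferon and sense double-stranded RNA, a mark of virus infection. Once bound to it they join ATP into short oligoadenylates, which act as a second messenger of the antiviral response. Some relatives have lost the synthetase activity and act in other ways. In the liver, interferon-stimulated genes are known from viral hepatitis and from the resident macrophages, the Kupffer cells.

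All 12 genes lie on chromosome 5 (coordinates as deposited, which match GENCODE M21 on GRCm38 for 11 of the 12, with Oas1b differing at its end). Oasl2 (114896936 to 114912234, plus strand) and Oasl1 (114923240 to 114937915, plus strand) form a pair that spans 41.0 kb. The other 10 lie within 191 kb, from the left end of Oas2 at 120730333 to the right end of Oas1d at 120921652, with no other protein-coding gene between them. In that order they are Oas2, Oas3 (120753098 to 120777661, minus strand), Oas1e, Oas1c, Oas1b, Oas1f, Oas1h, Oas1g (120876142 to 120887613, minus strand), Oas1a (120896256 to 120907521, minus strand) and Oas1d. Expressed and silent genes are interleaved along the cluster. The silent Oas1e separates Oas3 from Oas1c, and the silent Oas1f and near-silent Oas1h separate Oas1b from Oas1g. Oas1c and Oas1b stand head to head, 120 bases apart and pointing away from each other.

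**Figure D1:**
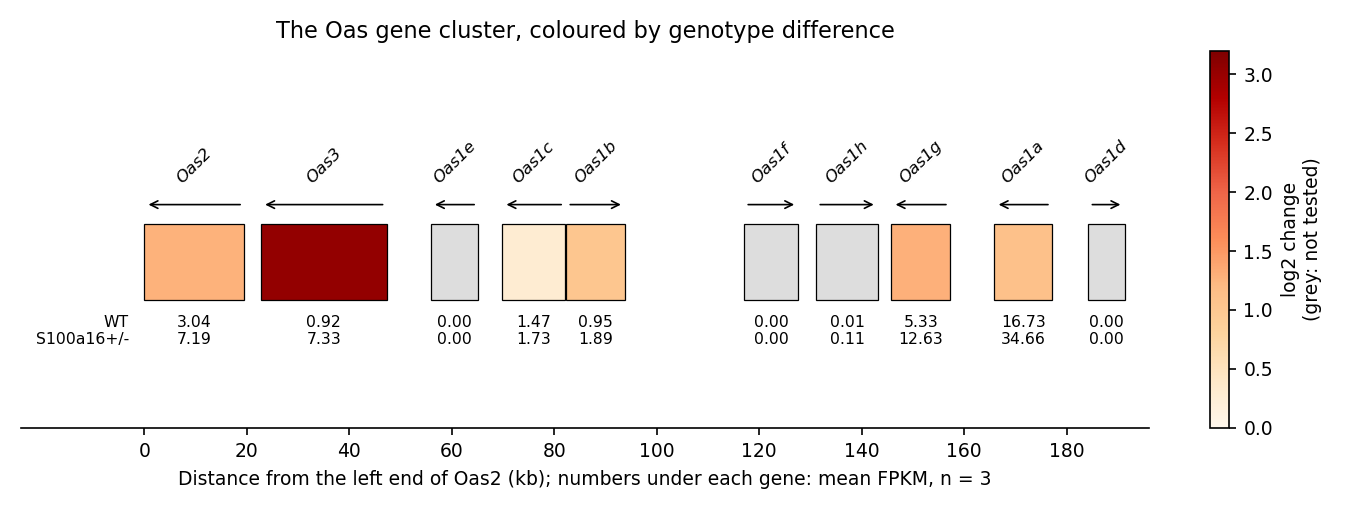
The 10 genes of the Oas cluster by distance in kb from the left end of Oas2, with arrows for the direction of transcription and colour for the log2 change (S100a16+/- over WT, edgeR; grey for genes not tested). The numbers under each gene are mean FPKM of 3 libraries, WT above S100a16+/-, and Oas3, with 0.92 against 7.33, is the darkest.

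The stretches before the annotated starts are shown because members that were higher together can be compared there by sequence. RefSeq promoter windows on GRCm38.p6, 250 bases before to 50 after each start, were at hand for 6 of the 8 members, all except Oas1b and Oas2. They were searched on both strands for GAAANNGAAA, the core letters of the interferon-stimulated response element bound by STAT and IRF factors. Oas1a, Oas1g, Oas1c and Oas3 held it, and the windows of Oasl1 and Oasl2 did not. Among all 32851 RefSeq windows it occurred in 3.44%, which is 1131 of them. In a list of 32 other interferon-stimulated genes, 26 had a window and 12 of those held it. The last 120 bases before the start are printed on the gene's own strand, 5′ to 3′, with the matches in capitals (Oas1a, chr5:120907526-120907645, minus strand; Oas1g, chr5:120887614-120887733, minus strand; Oas3, chr5:120777660-120777779, minus strand; Oas1c, chr5:120812515-120812634, minus strand).
Oas1a: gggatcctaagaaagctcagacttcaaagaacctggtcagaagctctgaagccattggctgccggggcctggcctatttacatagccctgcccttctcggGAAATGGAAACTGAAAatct
Oas1g: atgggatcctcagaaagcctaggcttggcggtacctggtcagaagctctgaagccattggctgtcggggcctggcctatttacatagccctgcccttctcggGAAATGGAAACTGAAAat
Oas3: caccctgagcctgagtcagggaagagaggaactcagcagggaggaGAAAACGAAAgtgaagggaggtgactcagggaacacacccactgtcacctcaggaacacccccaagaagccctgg
Oas1c: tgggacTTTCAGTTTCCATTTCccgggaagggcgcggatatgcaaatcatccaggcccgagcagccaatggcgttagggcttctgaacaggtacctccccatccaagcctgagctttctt

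Oas1a and Oas1g carried the same run of capitals, in which 2 matches share 4 bases. It began 20 bases before the Oas1a start and 18 bases before the Oas1g start, and their whole windows were 88.8% identical over 294 aligned bases. In Oas1c the same 2 overlapping matches stood on the opposite strand, 99 to 114 bases before its start and so in the gap between Oas1c and Oas1b. They span 120812613 to 120812628, close to the deposited Oas1b start at 120812635. On the plus strand, that of Oas1b, they read as the same run as in Oas1a and Oas1g. The run can therefore not be assigned to Oas1c rather than Oas1b, which had no window of its own. Oas3 had 1 match, 66 to 75 bases before its start. The STAT dimer letters TTCNNNGAA, found in 8.30% of all windows, occurred in 1 of the 6, at 90 to 98 bases before the Oas1a start and apart from the other matches. A match of letters shows neither binding nor use of a site.

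Oas1a and Oas1g are close copies, and this bears on their counts. The coding sequences in GENCODE M21 were 96.7% identical over 1101 bases, the closest pair of the 12 genes. Of the 150-base windows of the Oas1a transcript 32.4% also occurred in another gene's transcripts, as did 24.1% of those of Oas1g, and the number shared was 563 for each. No 150-base window, the length of 1 read in the labels' protocol, was shared by the other 10 genes. With windows of 50 bases the shared part was 57.6% for Oas1a, 45.7% for Oas1g, 10.7% for Oas1e, 9.82% for Oas1c, 6.24% for Oas1d and at most 2.84% for the other 7. The assignment of reads that match both was not given in the sources used here, so the split of counts between Oas1a and Oas1g is uncertain.

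Oas1b, the mouse gene long tied to resistance against flaviviruses, is truncated in the strain used here. GENCODE M21 classes it as a polymorphic pseudogene. Read in its annotated frame, the reference transcript held an in-frame stop at codon 253 of 376, in exon 4 (GRCm38, chr5:120821308-120821310, plus strand), and none of the other 11 genes had one before its end. The stretch is shown with the stop codon in capitals, because this stop cuts short the frame of that transcript. The Oas1b values below are per gene, and which of its transcripts they come from was not examined.
Oas1b: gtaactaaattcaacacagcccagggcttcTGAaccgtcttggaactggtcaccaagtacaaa

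S100a16 itself was lower in each S100a16+/- library (log2 change -1.35, SE 0.21, edgeR adjusted p = 0.0313), with an FPKM of 18.0, 17.7 and 30.0 in replicates 1, 2 and 3 against 57.7, 58.8 and 56.8 in WT. The call held without S100a16+/- replicate 3 and was lost without any 1 of the other 5 libraries (edgeR adjusted p from 0.105 to 0.143). Library totals ran from 61979103 to 76291481 counts. S100a16+/- replicate 3 stood apart. Over all tested genes it correlated at r = 0.930 with replicate 1 and r = 0.929 with replicate 2 of its genotype. Those correlated with each other at 0.987, and the WT libraries with each other at 0.981 to 0.985. Replicates 1 and 2 correlated with the WT libraries at 0.949 to 0.957. S100a16+/- replicate 3 correlated with WT replicates 1, 2 and 3 at 0.949, 0.948 and 0.946, above its values within its own genotype. It was the library with the X-inactivation transcript Xist (FPKM 32.2, at most 0.0323 elsewhere), and the Y-linked genes Ddx3y, Kdm5d and Eif2s3y had 4, 0 and 0 counts in it and 2506 to 6619 in the other libraries. This is the pattern of female cells in that library and of male cells in the other 5, and the part of sex in the OAS values was not tested. The labelled cell type was checked by markers. Of 10 stellate genes 8 reached an FPKM of 1 in at least 3 libraries, while Lrat, which stores retinol as esters, and Reln stayed below it in every library. Their summed FPKM was 775 and 741 in S100a16+/- replicates 1 and 2, 91.4 in replicate 3 and 625 to 694 in WT. All 11 macrophage genes reached that level, with a summed FPKM of 11307 to 16841 in S100a16+/- and 8621 to 9062 in WT. Endothelial genes summed to 516 and 492 in S100a16+/- replicates 1 and 2 against 1574 in replicate 3 and 1212 to 1351 in WT. Hepatocyte genes summed to 8.28 and 8.35 in replicates 1 and 2, 386 in replicate 3 and 58.5 to 87.9 in WT. Macrophage genes thus summed above stellate genes in every library, and endothelial genes did so in WT and in S100a16+/- replicate 3. The lists differ in length, so the sums are not shares of cells. By these markers the cultures were mixed, and the OAS values cannot be assigned to stellate cells. The part that the mix of cells had in the OAS values was not tested, and a greater share of expressing cells cannot be told apart from more RNA per cell.

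Summed over the 8 genes, the family stood at an FPKM of 82.3, 101 and 105 in S100a16+/- replicates 1 to 3 and at 40.1, 37.7 and 38.6 in WT replicates 1 to 3. The means were 96.2 ± 12.2 and 38.8 ± 1.20 (SD, n = 3 each), a ratio of 2.48. The summed macrophage markers had a ratio of means of 1.66 and the summed stellate markers of 0.80. The macrophage sum was mostly Lyz2, with means of 8249 FPKM in S100a16+/- and 4464 in WT. The median log2 change of the 11 macrophage genes was 0.46. The stellate ratio rested on S100a16+/- replicate 3 (91.4), since replicates 1 and 2 (775 and 741) were above every WT library (625 to 694). Oas1a supplied the largest part of the family sum in every library, 40.9% to 44.9% in WT and 33.7% to 40.5% in S100a16+/-. Oas3 supplied 2.14% to 2.80% in WT and 5.66% to 9.01% in S100a16+/-, Oasl2 10.9% to 11.2% and 13.4% to 17.8%, and Oas1c 3.61% to 3.91% and 1.64% to 1.93%. For these 4 genes the shares did not overlap between genotypes, with Oas1a and Oas1c taking less of the sum in S100a16+/- and Oas3 and Oasl2 more. The shares of the other 4 overlapped.

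**Figure D2:**
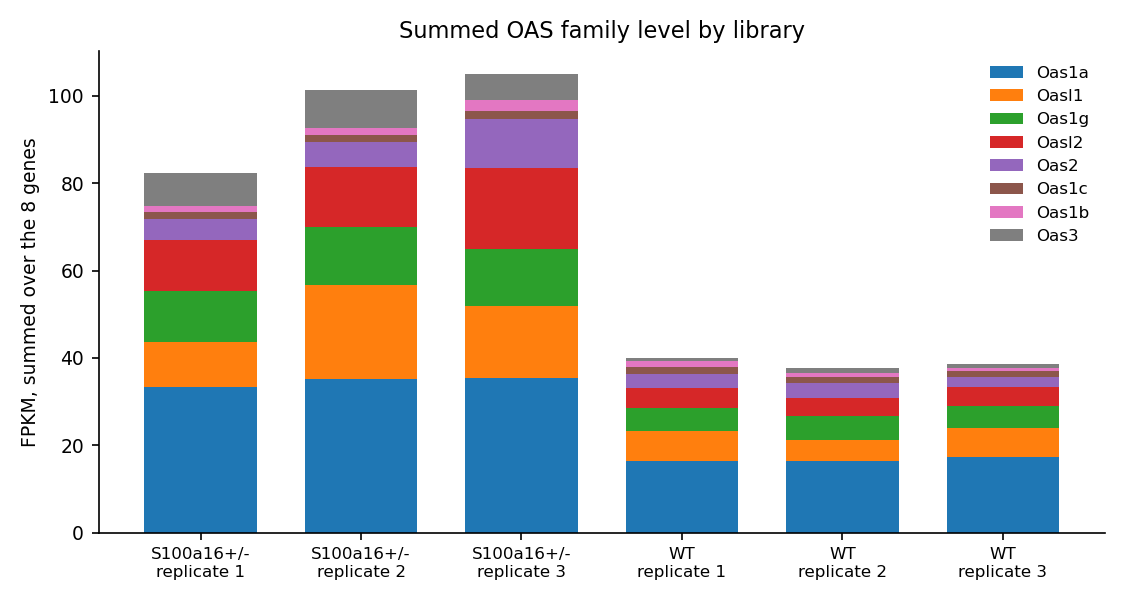
FPKM summed over the 8 OAS genes in each library, stacked by gene. The 3 S100a16+/- libraries reach 82.3 to 105 and the 3 WT libraries 37.7 to 40.1, and the Oas3 part is thicker in S100a16+/-.

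The genotype difference was fitted for 12766 genes that reached an FPKM of 1 in at least 3 libraries, and all 8 members were among them. The threshold for a call was an adjusted p of 0.05 (edgeR quasi-likelihood, Benjamini-Hochberg over all genes tested). It was passed by 4.46% of the tested genes, 2.85% higher in S100a16+/- and 1.61% lower. With library totals in place of TMM scaling the calls were 282 higher and 252 lower, with limma on log2(FPKM + 1) 248 and 243, and with TMM 364 and 206. Of the 8 members 4 were called higher, Oas1a, Oas3, Oas1g and Oasl2 (edgeR adjusted p = 0.00236, 0.00303, 0.00399 and 0.00981), and none lower. The call of Oasl2 was lost without S100a16+/- replicate 2 or without WT replicate 1, 2 or 3 (edgeR adjusted p = 0.0505, 0.0691, 0.0844 and 0.0797). Without S100a16+/- replicate 3, where 32.2% of tested genes were called, 15.8% higher and 16.4% lower, Oas2 and Oasl1 were called as well. In 7 of the 8, all except Oas1c, each S100a16+/- library was above each WT library, against 12.5% of all tested genes (18.9% were below). Since the genes were chosen with this contrast in view, nothing is read from these counts. The members' median log2 change was 1.29, and that of all tested genes 0.00.

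**Figure D3:**
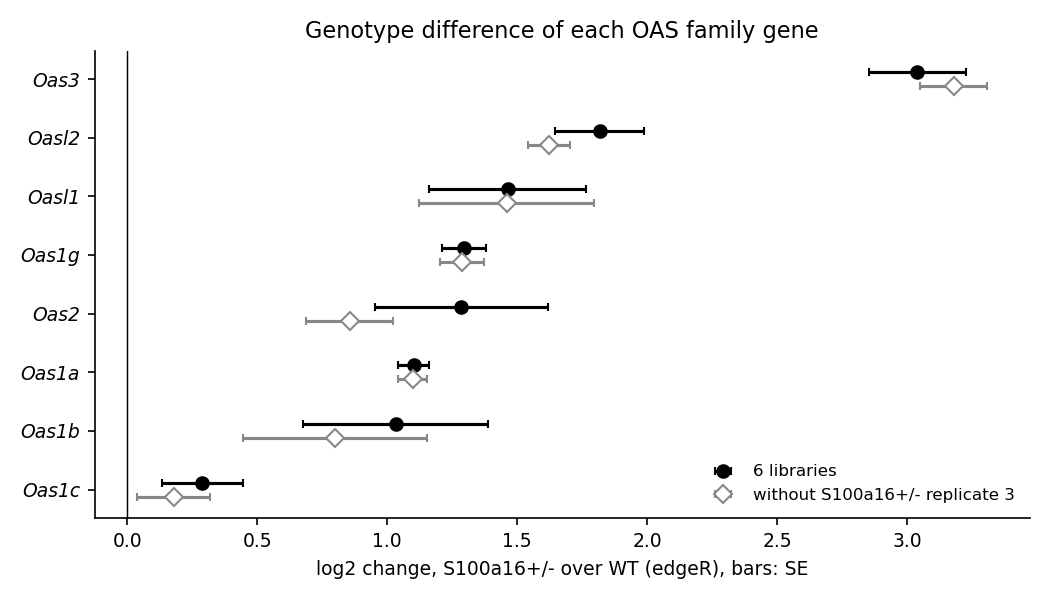
Log2 change of each OAS gene (S100a16+/- over WT, edgeR) with its SE, over 6 libraries (filled) and without S100a16+/- replicate 3 (open). Oas3 stands at 3.04, the others between 0.29 and 1.82, and Oas2 is the gene whose value moves most without that library, from 1.29 to 0.86.

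Among the single-unit synthetases, Oas1a and Oas1g were the abundant members. Both are known to make oligoadenylates. Oas1a had an FPKM of 33.3, 35.2 and 35.4 in S100a16+/- and 16.4, 16.5 and 17.3 in WT, which is 4579 to 5163 counts against 2263 to 2635. The libraries of each genotype lay close together and the groups were far apart: the lowest S100a16+/- value was 1.93 times the highest WT value. The log2 change was 1.10 (SE 0.06), between means of 34.7 ± 1.17 and 16.7 ± 0.494 FPKM (SD, n = 3 each).

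Oas1g had an FPKM of 11.6, 13.3 and 13.0 in S100a16+/- and 5.26, 5.50 and 5.22 in WT. Again no S100a16+/- library came near a WT library, the gap being 2.12 times. The log2 change was 1.30 (SE 0.09). Per kilobase, Oas1a stood well above Oas1g in all 6 libraries, with the caution on shared reads given above. Whether the log2 changes of these close copies differ was not tested, and neither was the part of the shared reads in them.

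The other single-unit genes were low. Oas1b had an FPKM of 1.47, 1.70 and 2.49 in S100a16+/- and 1.33, 0.942 and 0.578 in WT, from 94 to 341 counts. The groups did not overlap, but the lowest S100a16+/- value was only 1.11 times the highest WT value, and the WT libraries spread over 2.29-fold. Its log2 change was 1.03 (SE 0.36). Oas1c, on the other side of the shared gap, had an FPKM of 1.51, 1.66 and 2.02 in S100a16+/- and 1.53, 1.47 and 1.39 in WT. It was the member whose groups overlapped, and its log2 change was 0.29 (SE 0.15). The 2 genes that start 120 bases apart thus had log2 changes of 1.03 and 0.29, a difference that was not tested.

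The larger enzymes are built from repeated synthetase units. Oas3, the longest of the family with an annotated coding sequence of 3414 bases against 1101 for Oas1a, is known for binding long double-stranded RNA. It had an FPKM of 7.41, 8.63 and 5.94 in S100a16+/- and 0.858, 1.06 and 0.848 in WT, which is 4120, 4745 and 2883 counts against 447, 634 and 486. The lowest S100a16+/- library was 5.63 times the highest WT library. The log2 change was 3.04 (SE 0.19), with means of 7.33 ± 1.35 and 0.921 ± 0.118 FPKM (SD, n = 3 each), and was the 13th largest rise in the fit. S100a16+/- replicate 3 was the lowest of its genotype for Oas3, at 0.74 times the mean of replicates 1 and 2.

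Oas2, the neighbour of Oas3 on the same strand, 3244 bases away, showed another order of libraries. Its FPKM was 4.81, 5.72 and 11.0 in S100a16+/- and 3.30, 3.37 and 2.45 in WT. The groups did not overlap, and S100a16+/- replicate 3 was 2.09 times the mean of replicates 1 and 2, the highest such ratio in the family. The log2 change was 1.29 (SE 0.33) over 6 libraries and 0.86 (SE 0.17) without replicate 3.

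The OAS-like genes sit in the other cluster. Oasl1 has no synthetase activity and is known as a repressor of Irf7 translation. Its FPKM was 10.3, 21.5 and 16.5 in S100a16+/- and 6.90, 4.67 and 6.57 in WT. It was the member with S100a16+/- replicate 2 furthest above replicate 1, at 2.08-fold, and its log2 change was 1.46 (SE 0.30). Oasl2, which keeps synthetase activity beside ubiquitin-like domains, had an FPKM of 11.8, 13.6 and 18.7 in S100a16+/- and 4.49, 4.21 and 4.20 in WT. Its lowest S100a16+/- library was 2.62 times the highest WT library, and its log2 change was 1.82 (SE 0.17) over 6 libraries and 1.62 (SE 0.08) without replicate 3.

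**Figure D4:**
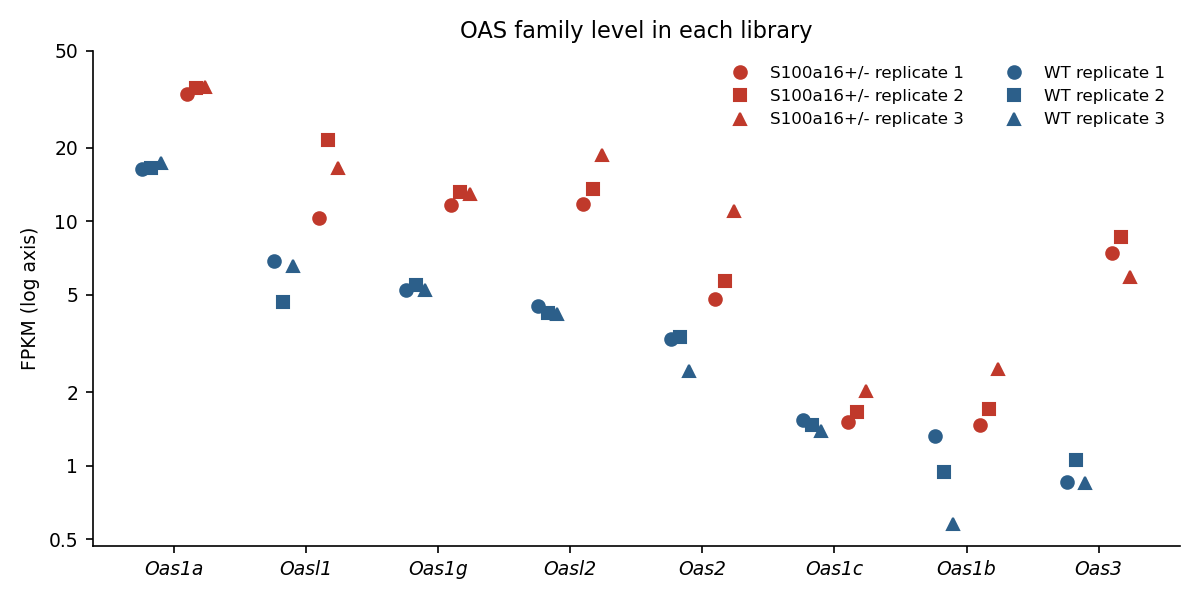
FPKM (log axis) of the 8 OAS genes in each of the 6 libraries, red for S100a16+/- and blue for WT, with a marker shape for each replicate, ordered by WT mean. Oas1c is the gene with overlapping colours, and Oas3 goes from the lowest WT level, 0.921, to the level of Oas2 in S100a16+/-.

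The order of mean levels differed between genotypes. In WT it ran Oas1a (16.7), Oasl1 (6.05), Oas1g (5.33), Oasl2 (4.30), Oas2 (3.04), Oas1c (1.47), Oas1b (0.949) and Oas3 (0.921 FPKM). Neighbours whose WT libraries overlapped were Oasl1 with Oas1g, and Oas1b with Oas3. In S100a16+/- the order was Oas1a (34.7), Oasl1 (16.1), Oasl2 (14.7), Oas1g (12.6), Oas3 (7.33), Oas2 (7.19), Oas1b (1.89) and Oas1c (1.73). Here the libraries of Oasl1, Oasl2 and Oas1g overlapped from each to the next, as did those of Oas3 and Oas2 and those of Oas1b and Oas1c. By mean, Oas3 was thus the lowest member in WT and level with Oas2 in S100a16+/-. By library, Oas3 was above Oas2 in S100a16+/- replicates 1 and 2 (7.41 and 8.63 against 4.81 and 5.72). In replicate 3 it was below Oas2 (5.94 against 11.0). The median tested gene had a mean FPKM of 6.46 in WT and 6.34 in S100a16+/-. By group mean, Oas1a lay above it in both genotypes, Oas1g, Oas2, Oas3, Oasl1 and Oasl2 crossed it, and Oas1b and Oas1c stayed below. For Oas2, S100a16+/- replicates 1 and 2 were still below 6.34, and for Oas3 replicate 3 was.

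Within S100a16+/-, the members divided by how replicate 3 compared with replicates 1 and 2. Oas1a, Oas1g and Oasl1 were at 1.03, 1.04 and 1.04 times the mean of those libraries. Oas1c, Oasl2, Oas1b and Oas2 were at 1.28, 1.47, 1.57 and 2.09 times. Oas3 was at 0.74 times. Among the 28 other interferon-stimulated genes tested, replicate 3 was above that mean in 28, with a median of 1.68 times and a range of 1.09 to 4.58. Over all tested genes the median was 1.01. Oas3 thus lay below, and Oas1a, Oas1g and Oasl1 also below, the lowest of those 28 values.

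Abce1 and Pde12, tested beside the family, were not called. Abce1, a ribosome recycling factor, had a log2 change of 0.09 (SE 0.06), and Pde12, which degrades oligoadenylates, of 0.22 (SE 0.08), with edgeR adjusted p of 0.418 and 0.184.

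Genes upstream of the family were described from lists that were also chosen with results of these data known. Interferon genes themselves were near silent: the 21 in the list, with Ifnb1 listed at 0 throughout, had 0 to 13 counts in all per library and none was tested. In the next 3 short lists 1 or 2 genes each were called higher, against 2.85% of all tested genes, and nothing is read from those counts. Of 13 tested receptor and JAK-STAT genes 1 rose, Stat2, which binds the response element in a complex with IRF9, by 0.99 on the log2 scale (SE 0.14, adjusted p = 0.0246 in edgeR). For Irf9 the log2 change was 0.63, at an adjusted p of 0.190 in edgeR. For the receptor genes it was -0.11 for Ifnar1 and -0.04 for Ifnar2, at adjusted p of 0.715 and 0.835 in edgeR. Ifngr1, the receptor gene for interferon gamma, had an FPKM of 16.1, 17.5 and 23.1 in S100a16+/- and 27.9 to 33.5 in WT, with no overlap (log2 change -0.68, SE 0.15, adjusted p = 0.0668 in edgeR). Of 6 interferon regulatory factors 1 rose, Irf7, the amplifier of interferon production, from an FPKM of 6.42, 7.17 and 6.13 in WT to 13.7, 21.0 and 33.1 in S100a16+/- (log2 change 1.83, SE 0.31, edgeR adjusted p = 0.0383). Irf8, in the same list, had an FPKM of 12.4, 6.65 and 9.29 in S100a16+/- and 14.8 to 15.9 in WT, with no overlap. Its log2 change was -0.66 (SE 0.22, edgeR adjusted p = 0.157). Of 15 sensors of foreign nucleic acid and their adaptors 2 rose, the helicase gene Dhx58 at 1.08 and the kinase gene Ikbke at 0.82 (edgeR adjusted p = 0.0490 and 0.00847). Tlr9, a receptor for unmethylated DNA, had an FPKM of 2.62, 2.94 and 6.07 in S100a16+/- and 8.77 to 9.12 in WT, with no overlap (log2 change -1.15, SE 0.32, edgeR adjusted p = 0.111). Without S100a16+/- replicate 3 the 15 had 8 higher and 2 lower calls, against 15.8% and 16.4% of all tested genes.

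Of the 28 other interferon-stimulated genes 6 rose and none fell, against 2.85% of all tested genes called higher. All 28 had a log2 change above 0, with a median of 0.87, against 6412 of the 12766 tested genes. Without S100a16+/- replicate 3 it was above 0 in 26, and Isg20 and Rsad2 were at -0.47 and -0.08. Those that rose were Rtp4 at 1.60, the secreted glycoprotein gene Lgals3bp at 1.03, the Schlafen genes Slfn8 and Slfn5 at 0.96 and 0.85, the ubiquitin-like ligase gene Herc6 at 0.89 and Ifi35 at 0.71 (edgeR adjusted p from 0.0228 to 0.0412). The OAS members Oas3 and Oasl2 had log2 changes above the largest of these 28, 1.75 for Ifi44 (SE 0.58). Without S100a16+/- replicate 3 that of Ifi44 was 0.80. The members were selected on this difference, so nothing is read from the order. Without S100a16+/- replicate 3 the median fell to 0.43 in this list and to 1.19 in the OAS family. In that fit 19 of the list were called higher, against 15.8% of all tested genes. Of the 65 genes tested in these pathway lists 10 were called, 3 without S100a16+/- replicate 1, and 0 without S100a16+/- replicate 2 or without WT replicate 1, 2 or 3. Over all 12766 tested genes the calls in these fits were 570, 80, 57, 42, 35 and 32. At an unadjusted p under 0.05 edgeR had 37, 29, 27 and 29 of the 65 in the last 4 of them. Over all tested genes it had 2029, 1942, 1949 and 1895. With 6 libraries DESeq2 called 30 of the 65, 27 higher and 3 lower, and limma on log2(FPKM + 1) called 4. Over all tested genes they called 1888 and 491. Nothing is read from these counts.

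**Figure D5:**
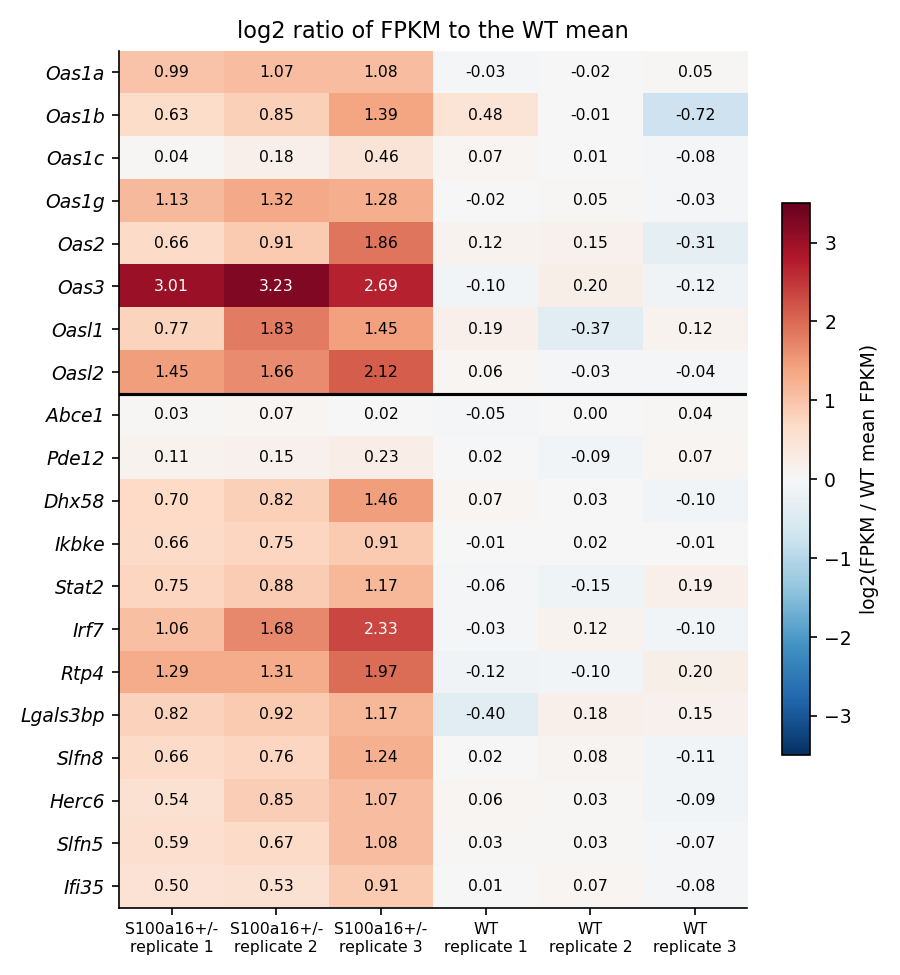
Log2 ratio of FPKM to the WT mean in each library for the 8 OAS genes (above the line), Abce1, Pde12 and the called genes of the pathway lists. Oas3 has the highest ratio in all 3 S100a16+/- libraries, Abce1 and Pde12 lie at 0.938 to 1.17 times the WT mean, and most genes below the line are highest in replicate 3.

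The genes most like the family in pattern were found by Pearson correlation of log2(FPKM + 1) over the 6 libraries with the mean of the 8 members. The 8 highest outside the family were Atg12, a ubiquitin-like autophagy gene (r = 0.999), Znfx1, a helicase-like RNA-binding protein gene (0.998), Bmt2 (0.996), the syntenin gene Sdcbp (0.995), Ikbke (0.995), the predicted gene Gm15922 (0.995), Mfhas1 (0.994) and Tmem268 (0.993). The points are 6 libraries in 2 separate genotypes, and 493 of 12758 genes (3.86%) reached an r of 0.9, so a gene with a steady difference between the genotypes scores high. Their log2 changes ran from 0.28 for Atg12 to 0.82 for Ikbke, below those of all members except Oas1c (0.29). Among the members, Oasl2 followed the family mean most closely (r = 0.995) and Oas1c least (0.784). Oas1a, Oas1g and Oas3 correlated at r = 0.986 to 0.996 over the 6 libraries, with the caution on reads shared by Oas1a and Oas1g. Within S100a16+/- they were less alike. Replicate 3 was the lowest for Oas3, at an FPKM of 5.94 against 7.41 and 8.63. For Oas1a it was close to replicate 2 (35.4 against 35.2), and for Oas1g it lay between replicates 1 and 2 (13.0 between 11.6 and 13.3). Oas2 was closest to Oas1c and Oas1b (r = 0.962 and 0.943).

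Some markers of other cells were higher in S100a16+/- like the family, while others were level or lower. Of the 11 macrophage markers 3 were called higher, Marco, Cd5l and Adgre1 (log2 change 1.17, 0.91 and 0.46, edgeR adjusted p = 0.0376, 0.0206 and 0.0497), and none lower. Over all tested genes the shares were 2.85% and 1.61%. Without S100a16+/- replicate 3, 6 were called higher and 2 lower, C1qa and Timd4, against 15.8% and 16.4% of all tested genes. Each S100a16+/- library was above each WT library for 5 of the 11, and below for 1, Timd4, against 12.5% and 18.9% of all tested genes. Nothing is read from these counts. The markers did not order the S100a16+/- libraries alike: replicate 3 was above the mean of replicates 1 and 2 for 5 of the 11. The scavenger receptor gene Marco was at an FPKM of 2829, 3010 and 1930 in S100a16+/- and 1162 to 1218 in WT. Cd5l, a secreted macrophage protein gene, was at 949, 1004 and 1225 against 559 to 606, and the complement gene C1qa at 836, 881 and 1152 against 1150 to 1243. Of the 6 dendritic cell genes Clec9a alone was tested, at an FPKM of 1.93 to 3.06 in S100a16+/- and 1.56 to 1.88 in WT, while Cd209a had no count and Siglech, which marks the plasmacytoid cells known for making interferon, reached at most 0.0163. Of the 6 neutrophil genes S100a8 was the one tested, at 6.58 to 15.0 against 0.572 to 2.01, and 4 had no count. The 6 lymphocyte genes summed to at most 0.545 in any library. What part these cells had in the family's levels was not tested.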

How the data were processed

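Gene values came from 1 deposited table for 6 libraries. Each gene had a read count and an FPKM per library, both deposited by the authors per the file headers, with 0.0001 as the FPKM wherever the count was 0. Tools in the submitters' processing notes were HISAT2 2.0.4, StringTie 1.3.4d, UMI-tools, cutadapt 1.9, edgeR and DESeq2, in no stated order. The genome build, the use of strand and the collapsing of molecular identifiers were not given in the sources used here. Genes reaching FPKM 1 in 3 or more libraries were tested on their counts by edgeR's quasi-likelihood method (version 4.0.16 in R 4.3.3) after TMM scaling, the model holding genotype alone. Each SE was taken as the size of the log2 change over the root of its F statistic. The fit was tested on simulated counts in which all libraries of a genotype shared the same mean per gene. That test does not cover a library that stands apart, such as S100a16+/- replicate 3. Alternatives used DESeq2 1.42.0 and limma 3.58.1 on log2(FPKM + pseudocount). A library was left out with the tested genes kept. The members and gene lists were chosen with earlier results of these data known. Named genes were the 12 Oas genes, S100a16, Abce1, Pde12, up to 6 called genes per pathway list (or the 2 of smallest p), the 2 most abundant markers per cell type and the 8 genes most correlated with the family. Others (Irf8, Irf9, Tlr9, Ifngr1, Ifi44, Isg20, Rsad2, Cd5l, Adgre1, Timd4, C1qa, Ddx3y, Kdm5d, Eif2s3y, Ifnar1, Ifnar2, Ifnb1, Xist, Lrat, Reln, Cd209a, Siglech) were added after their values were seen. Some genes of the pathway lists are counted but not reported here by name. Promoters came from RefSeq (GRCm38.p6) and transcripts from GENCODE M21, both aligned with Biopython 1.88.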

Additional observations from a re-analysis of the deposited data

How the results depend on the processing

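The 4 called members stayed called with DESeq2's size factors, with library totals alone, with no low-value filter, with a mean count of at least 10 and with limma at pseudocounts of 1, 0.1 and 5; DESeq2 called 6. With 1 library left out the number ran from 3 to 6. Oas1a, Oas1g and Oas3 were called in all 6 such fits and Oasl2 in 2, without S100a16+/- replicate 1 or 3; its adjusted p was 0.0505 to 0.0844 in the other 4. Same-numbered libraries did not deviate together (r = -0.138, 0.0376 and -0.0500), and libraries of unlike number gave -0.0761 to 0.114. With 3 libraries per genotype and S100a16+/- replicate 3 standing apart, this cannot settle whether the number pairs libraries. With the replicate block edgeR called 0 of the 8 (6 at an unadjusted p under 0.05), 0 of the pathway genes (31) and 0 of all genes (2207), and S100a16 had a log2 change of -1.39 (adjusted p = 0.139). Over all genes the 570 calls became 243 with no filter and 1888 with DESeq2, and 32 to 4115 with a library left out. Of the pathway genes 3 were called with no filter, 6 at a mean count of at least 10, 30 with DESeq2, 4, 3 and 5 with limma at pseudocounts of 1, 0.1 and 5, and 0 to 38 with a library left out. S100a16 stood at -1.36 with no filter (adjusted p = 0.0516) and from -1.63 to -1.23 with a library left out, where its call was lost in 5 of the 6 fits (adjusted p = 0.105 to 0.143). Every member's log2 change stayed above 0 in these fits; Oas3 ranged from 2.98 to 3.04 in the 6 other fits to counts, and with limma fell to 1.05 at a pseudocount of 5. Some markers turned sign: Acta2 and Col1a1 with a library left out (-0.62 to 0.27 and -0.90 to 0.000486, positive without S100a16+/- replicate 3); Alb with limma at pseudocounts of 1, 0.1 and 5 (-1.40, -1.53 and -1.01), the replicate block (-2.04) and a library left out (-3.35 to 1.20); Apoa1 with limma at 1 and 0.1 (-0.43 and -1.25), the block (-2.18) and a library left out (-3.81 to 2.41), both below 0 without S100a16+/- replicate 3; and Krt19 with library totals (-0.0153), limma (-0.00866, -0.0116 and -0.00406) and a library left out (-0.0295 to 0.0935). The causes were not tested. Oas1b, at 94 to 341 counts, is the member with least depth.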
